A study of Rattus norvegicus with 23 samples.

Results

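CG4 cells, an immortalised line derived from rat brain oligodendroglia, were compared after 3 days in differentiation medium and while proliferating. The comparison holds 7 of the 23 libraries of the series, chosen by their titles: 4 of control differentiating CG4 cells and 3 of proliferating CG4 cells. The control differentiating cells had been transduced with pCAG-IRES-EGFP, a vector that makes GFP alone, and were moved to SATO medium with high T3/T4 (thyroid hormones) and CNTF. The proliferating cells were wild-type, carried no vector and stayed in basal medium with the growth factors bFGF and PDGF-AA. Both groups come from 1 cell line. Reads were 150 bases long in the differentiating and 100 bases in the proliferating libraries, so medium, vector and read length change together and cannot be told apart. Primary rat oligodendroglia, shaken off mixed glial cultures, gave 4 libraries in the same differentiation medium for 3 days and 4 in the proliferation medium, all with 150-base reads, and served as an outside reference. The question is which genes change as CG4 cells leave proliferation and start to differentiate.

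Oligodendrocyte progenitors divide in response to PDGF acting through the receptor PDGFRA and to FGF, both of which signal through the ERK kinases. When these factors are withdrawn and thyroid hormone is present, progenitors leave the cell cycle, switch on the regulator Myrf and begin to make myelin proteins and lipids. CG4 cells are used as a model of these steps because they can be kept dividing as progenitors and can turn into oligodendrocytes or into astrocytes, depending on the medium.

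Values are gene counts as deposited, and levels are CPM, counts scaled to a common library size with TMM factors, which evens out differences in composition between libraries. CPM are not divided by gene length, so levels are compared between libraries for 1 gene and not between genes. Changes are log2 fold changes ± SE, differentiating over proliferating, with Benjamini-Hochberg adjusted p-values of edgeR's quasi-likelihood test over 4 and 3 libraries, and a gene counts as changed at an adjusted p under 0.05. Depth ranged between 39268564 and 49206479 counts in the differentiating libraries and between 32454992 and 42318101 in the proliferating ones. The summed level of 8 oligodendroglial markers was 11863 to 18243 CPM in differentiating and 5017 to 7043 CPM in proliferating libraries. The most abundant markers weigh most in this sum, and Cspg4 among them was low in both groups. In bulk RNA, fewer cells that express a gene and less of its RNA per cell cannot be told apart.

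The files share 15219 genes, of which 12486 had enough counts to be tested. Before any counting, 283 genes were set aside because their mean in proliferating CG4 cells lay over 8-fold outside the range of control differentiating CG4 and both primary groups, with means under 1 CPM raised to 1 CPM. Of these, 184 lay above the range and 99 below it, and they held 1.03% to 1.11% of the counts in differentiating and 2.26% to 2.37% in proliferating libraries. They include genes that most cells use. Gapdh, a glycolytic enzyme, had 2335, 2702, 2199.5 and 2488 CPM in the differentiating libraries, against 0.215, 0.0628 and 0.241 CPM in the proliferating libraries, and 1160.3 and 1293.4 CPM on average in differentiating and proliferating primary cells. Tpi1, another glycolytic enzyme, showed the reverse, with 0.756, 0.995, 1.15 and 0.702 CPM in the differentiating libraries, against 1102, 403 and 497 CPM in the proliferating ones. Rpl32, a ribosomal protein, had 444, 506, 605 and 574 CPM in differentiating libraries, against 3.01, 1.44 and 1.74 CPM in proliferating ones. Best1, a chloride channel, had 179, 163, 142 and 158 CPM in differentiating libraries and no count in any proliferating library. Gnas, a stimulatory G protein subunit, had 2.16 CPM on average in differentiating cells, against 1161 CPM in proliferating cells. Just inside the limit lay Lpp at 8.12-fold and Zfp566 at 8.15-fold above the range and RGD1565131 at 8.25-fold and Maf at 8.37-fold below it. Just outside it lay Phldb2 at 7.91-fold and Chl1 at 7.90-fold above, and Cep83 at 7.99-fold and Txndc15 at 7.79-fold below.

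Of the remaining 12203 genes, 7930 changed, which is 65.0% of those tested. The change was even in direction, with 3965 genes higher (32.5%) and 3965 lower (32.5%) in differentiating cells. With a change of at least 2-fold, 4944 genes were called (40.5%), of which 2753 genes were higher (22.6%) and 2191 lower (18.0%). Every differentiating library lay above every proliferating one for 4123 genes (33.8%) and below every one for 3990 (32.7%), so groups that do not overlap are common here. The median log2 fold change over all 12203 genes was 0.02, and these shares are the background for every gene list below. Scaling by upper quartiles moved that median by 0.15, and the 3 scalings other than TMM left the split of the calls within 10 percentage points.

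The change was related to gene length. Among the 11540 counted genes with a gene span in the RefSeq annotation of GRCr8, the median log2 fold change was 0.57 in the decile of genes with the shortest spans (under 5.04 kb) and -0.47 in the decile with the longest (over 139 kb). In the shortest decile 47.6% of genes were higher and 16.03% lower, and in the longest decile 19.8% were higher and 43.8% lower. Primary cells, whose 2 groups share 1 read length, had medians of -0.09 in the shortest and 0.19 in the longest decile. As a description, Spearman's rho across genes between span and log2 fold change was -0.24 in CG4 and 0.09 in primary cells. The part of read length in this trend was not tested. Where removing the trend turned the direction of a list or gene, this is said beside it.

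**Figure D1:**
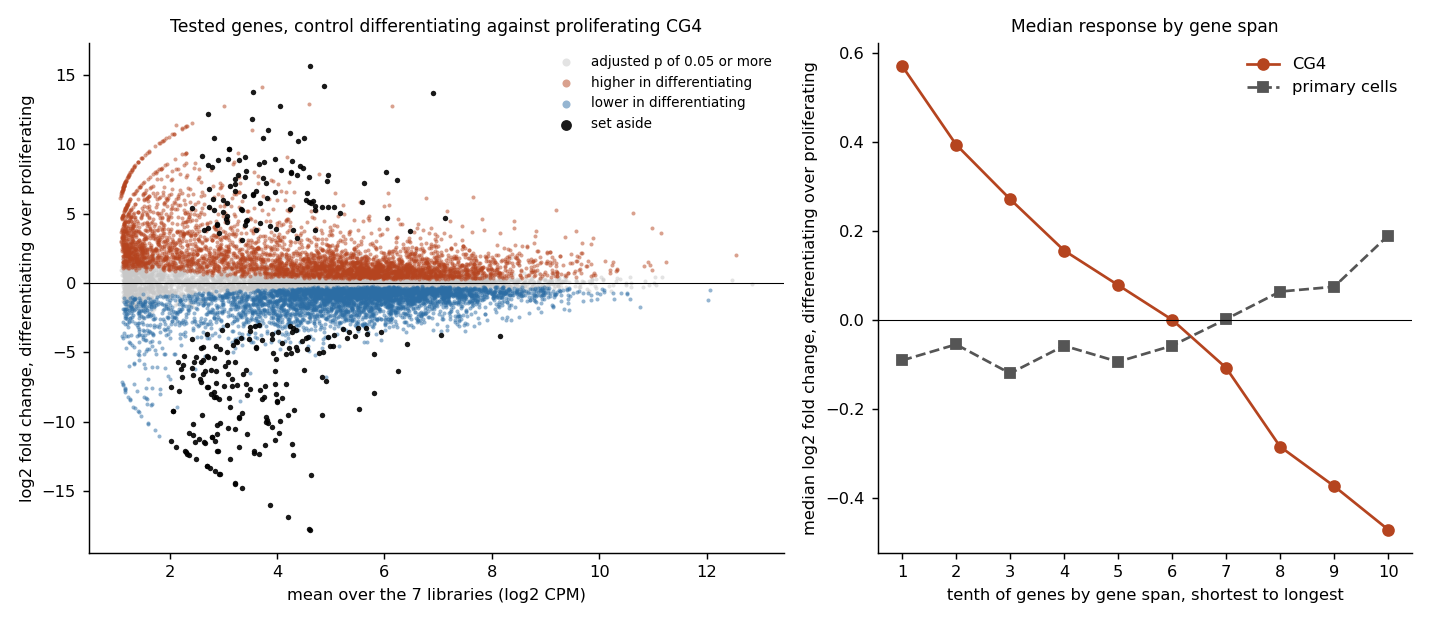
Left, log2 fold change (control differentiating over proliferating CG4) of each tested gene against its mean level in log2 CPM, with genes set aside in black. Their changes, up to 15.64 for Best1, are large by the rule that set them aside, since its range includes the differentiating level. Right, median log2 fold change in deciles of genes by gene span for CG4 (circles) and primary cells (squares): the CG4 medians run from 0.57 to -0.47, the primary ones from -0.09 to 0.19.

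Myelin genes rose as a group. Of 14 counted structural myelin genes 11 rose and 2 fell, and the median log2 fold change was 2.65, against 0.02 over all genes. Mbp (ENSRNOG00000016516), myelin basic protein, which holds the membrane layers of myelin together, had 5001, 4706, 9219 and 8142 CPM in the 4 differentiating libraries, against 403, 305 and 624 CPM in the 3 proliferating libraries. The groups did not overlap, and the log2 fold change was 3.93 ± 0.38, adjusted p = 5.41e-05. Mag (ENSRNOG00000021023), an adhesion protein on the inner face of the myelin sheath, had 928, 1036, 2219 and 1505 CPM in differentiating libraries, against 4.51, 13.2 and 40.3 CPM in proliferating ones, a log2 fold change of 6.20 ± 0.84, adjusted p = 3.12e-04. Cnp, an enzyme of the inner myelin layers that progenitors already make, was high throughout, with a mean of 2676 CPM in differentiating and 1126 CPM in proliferating cells (1.25 ± 0.18, adjusted p = 5.03e-04).

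Several late myelin genes rose by a large factor but stayed at low counts. Mobp, a myelin protein of the compact sheath, averaged 8.74 CPM in differentiating and 0.268 CPM in proliferating cells (4.99 ± 0.45, adjusted p = 3.59e-05). Opalin, a membrane glycoprotein of mature oligodendrocytes, averaged 7.04 CPM in differentiating and 0.202 CPM in proliferating cells (5.05 ± 0.61, adjusted p = 1.66e-04). The 2 members that fell were Pmp22, a peripheral myelin protein (-2.40 ± 0.50, adjusted p = 0.00312), and Omg, oligodendrocyte myelin glycoprotein (-1.95 ± 0.24, adjusted p = 2.01e-04). Mog and Cldn11, a surface glycoprotein and a tight junction protein of myelin, were set aside because proliferating CG4 cells lay far below both primary groups. Mog had 32.5, 32.0, 43.9 and 52.0 CPM in differentiating libraries, against 0.502, 0.314 and 1.37 CPM in proliferating ones, and averaged 12.6 CPM in proliferating primary cells. The iron carrier Tf was set aside as well, at 101 CPM in differentiating and 0.441 CPM in proliferating CG4 cells, with 75.2 CPM in differentiating and 89.5 CPM in proliferating primary cells.

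Most genes of committed, premyelinating cells rose as well: 14 of 16 rose, 1 fell, and the median was 2.37. The number that rose was 12 without differentiating replicate 2, 3 or 4. Medians without 1 library ran between 1.80 and 3.025. Bcas1, which marks oligodendrocytes at the start of myelination, had 3382, 3497, 4626 and 3873 CPM in differentiating libraries, against 1104, 1326 and 1547 CPM in proliferating ones (1.54 ± 0.19, adjusted p = 1.70e-04). Enpp6, a choline phosphodiesterase of newly formed oligodendrocytes, had 15.9, 14.2, 24.9 and 20.6 CPM in differentiating libraries, against 0.167, 0.157 and 2.02 CPM in proliferating ones (4.56 ± 0.87, adjusted p = 0.00202). Every differentiating library lay above every proliferating one for both genes. Fyn, a kinase that couples axon contact to process outgrowth, averaged 1242 CPM in differentiating and 473 CPM in proliferating cells (1.39 ± 0.19, adjusted p = 3.58e-04). Itpr2, a calcium release channel that marks committed progenitors, was the member that fell (-0.84 ± 0.21, adjusted p = 0.00771), and it did not pass with the gene span trend removed (-0.22, adjusted p = 0.386). Of 27 other mature oligodendrocyte genes 18 rose and 2 fell, with a median of 1.36. Nfasc, whose glial form joins myelin to the axon beside the node of Ranvier, rose by 3.23 ± 0.48, adjusted p = 5.26e-04 and Fa2h, which makes the hydroxylated fatty acids of myelin lipids, by 3.40 ± 0.58, adjusted p = 0.00108. Anln, an actin binding protein that also serves cell division, fell (-2.18 ± 0.11, adjusted p = 1.86e-06), as did Evi2a (-2.24 ± 0.17, adjusted p = 1.52e-05).

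Progenitor markers fell in part. Of 30 counted, 14 fell and 5 rose, with a median of -0.75, or -0.42 without proliferating replicate 3. Pdgfra (ENSRNOG00000002244), the receptor for the PDGF-AA of the proliferation medium, had 491, 468, 312 and 315 CPM in differentiating libraries, against 1098, 1542 and 2039 CPM in proliferating ones. The groups did not overlap, and the level fell by 1.98 on the log2 scale (SE 0.26, adjusted p = 2.58e-04). Cspg4, the NG2 proteoglycan that marks progenitors in tissue, was low in both CG4 groups, with 2.13, 1.63, 1.15 and 1.65 CPM in differentiating libraries, against 2.56, 2.70 and 2.80 CPM in proliferating ones, and did not pass the test (-0.71 ± 0.29, adjusted p = 0.0565) except with DESeq2, in the fit of 15 libraries or without differentiating replicate 1. Primary cells had 104 CPM of Cspg4 when differentiating and 95.9 CPM when proliferating. Ptprz1, a phosphatase and proteoglycan of progenitors, fell by 0.80 (SE 0.16), or by 0.29 with the gene span trend removed, where it did not pass (adjusted p = 0.153), and Cspg5, another proteoglycan, by 2.76 (SE 0.49). Nnat, an imprinted membrane protein, averaged 55.4 CPM in differentiating and 585 CPM in proliferating cells. Gpr37l1, an orphan receptor, was among the 5 progenitor markers that rose (2.11 ± 0.21, adjusted p = 5.98e-05). Neu4, a sialidase, was set aside.

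Among 33 counted lineage transcription factors 11 rose and 15 fell, and the median was -0.43. It was -0.03 with the gene span trend removed, -0.28 with upper quartile scaling and -0.034 without proliferating replicate 2, where 13 rose and 13 fell. Myrf (ENSRNOG00000028274), the membrane-bound factor that switches on myelin genes, had 698, 659.7, 817 and 662 CPM in differentiating libraries, against 123, 322 and 285 CPM in proliferating ones (1.54 ± 0.31, adjusted p = 0.00253). Sox10, which defines the lineage and acts with Myrf, had 1668, 1795, 1811 and 1779 CPM in differentiating libraries, against 631, 1117 and 872 CPM in proliferating ones (1.01 ± 0.20, adjusted p = 0.00209). For both factors the lowest differentiating library lay above the highest proliferating one. Nkx2-2, a homeodomain factor that represses Pdgfra, averaged 275 CPM in differentiating and 67.1 CPM in proliferating cells and rose by 2.04 ± 0.36, adjusted p = 0.00134. Zfp488, a zinc finger factor that promotes oligodendrocyte formation, had 34.5, 38.8, 59.8 and 39.1 CPM in differentiating libraries, against 66.0, 55.1 and 82.9 CPM in proliferating ones. It fell by 0.66 (SE 0.22, adjusted p = 0.0274), although the groups overlapped. It did not pass the test with upper quartile scaling or without differentiating replicate 1, 2 or 4 or proliferating replicate 3 (adjusted p up to 0.104).

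Olig1, a bHLH factor of the lineage, had 382, 401, 504 and 483 CPM in differentiating libraries, against 1050.3, 1473 and 1167 CPM in proliferating ones (-1.48 ± 0.17, adjusted p = 1.16e-04). Olig2, its partner in specifying the lineage, had 411, 437, 570.3 and 469.9 CPM in differentiating libraries, against 482, 747 and 633 CPM in proliferating ones, which did not pass the test (-0.40 ± 0.18, adjusted p = 0.0841). It passed as lower without differentiating replicate 3 or proliferating replicate 1, in the fit of 15 libraries and with the gene span trend removed. Sox6, a SoxD factor that holds progenitors in the undifferentiated state, had 171, 185, 110.2 and 88.5 CPM in differentiating libraries, against 725, 838 and 905 CPM in proliferating ones (-2.57 ± 0.26, adjusted p = 7.21e-05). Sox5, the other SoxD member of the list, fell by 1.99 (SE 0.33), and so did the nuclear factors Nfia (-1.80 ± 0.15, adjusted p = 2.19e-05) and Nfib (-3.15 ± 0.20, adjusted p = 5.26e-06). Sox2, a factor of stem and progenitor cells, rose, with 918, 934, 704 and 801 CPM in differentiating libraries, against 222, 219.9 and 239 CPM in proliferating ones (1.89 ± 0.14, adjusted p = 1.42e-05). St18, a zinc finger factor of the Myt family, had 1 count over the 3 proliferating libraries, and its level was 81.4-fold higher in differentiating cells, with a 95% counting interval of 14.3 to 3244 (exact binomial, counting error only). Sox8, a SoxE factor, rose by 0.59 ± 0.23, adjusted p = 0.0488, close to the threshold. It did not pass with library totals only, without differentiating replicate 1, 2 or 3, without proliferating replicate 1 or 2 or with the gene span trend removed, where its log2 fold change was 0.17 (adjusted p up to 0.526).

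**Figure D2:**
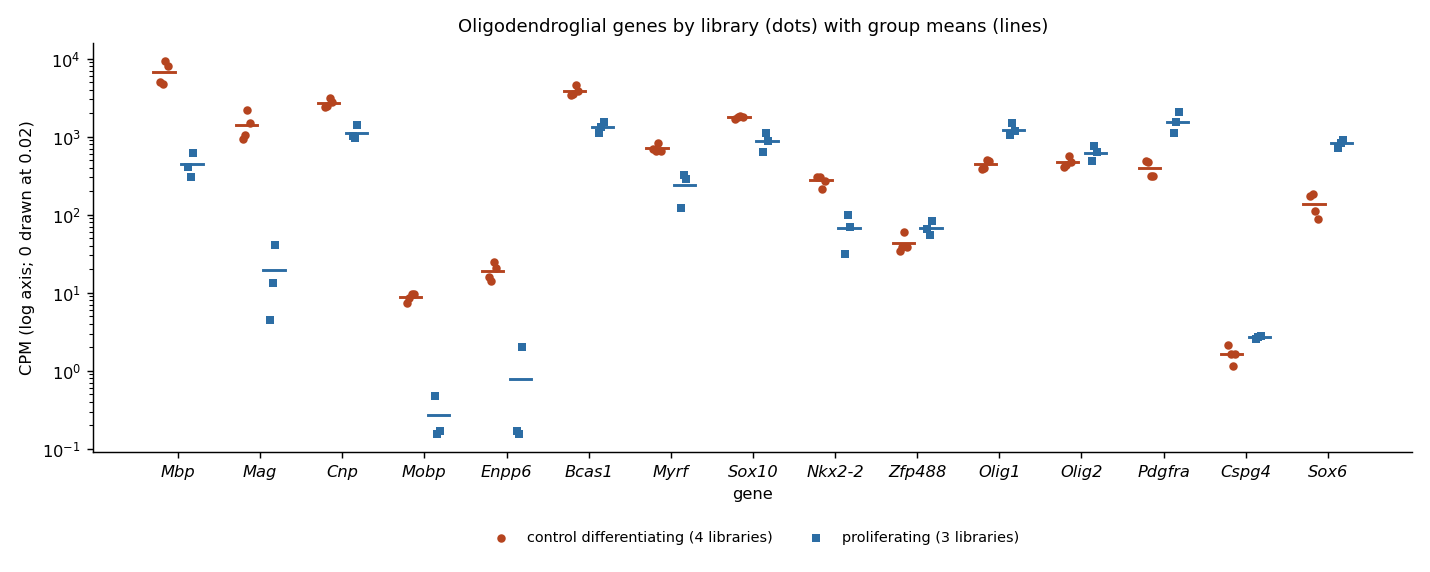
CPM (log axis) of 15 oligodendroglial genes in each library, with the 4 control differentiating libraries left (circles) and the 3 proliferating libraries right (squares) of each pair and lines at the group means. Mbp, Mag, Mobp, Enpp6, Bcas1, Myrf, Sox10 and Nkx2-2 have every differentiating library above every proliferating one, Olig1, Pdgfra, Cspg4 and Sox6 have every one below, and Zfp488 and Olig2 overlap. Of all 12203 counted genes, 33.8% have every differentiating library above and 32.7% every one below.

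Cell cycle genes fell as a group. All 30 counted genes of mitosis and G2 fell, with a median of -2.66, and 32 of 34 DNA replication genes fell and 1 rose, with a median of -2.17. For comparison, 32.5% of all genes fell. Mki67 (ENSRNOG00000028137), the Ki-67 antigen of cycling cells, had 73.1, 89.8, 79.5 and 80.2 CPM in differentiating libraries, against 677, 768 and 614 CPM in proliferating ones, a log2 fold change of -3.09 ± 0.13, adjusted p = 6.90e-07. Ccnb1, the cyclin that drives entry into mitosis, had 29.0, 36.3, 35.8 and 38.4 CPM in differentiating libraries, against 323, 319 and 304 CPM in proliferating ones (-3.18 ± 0.13, adjusted p = 5.56e-07). The spread within each group was small beside the gap between the groups, and transcripts of both genes were still counted at these levels after 3 days. Ttk, a spindle checkpoint kinase (-3.35 ± 0.13, adjusted p = 5.41e-07), and Kif11, the motor that separates the spindle poles (-3.33 ± 0.12, adjusted p = 3.54e-07), fell the most in the mitosis list. Nuf2, a kinetochore protein, fell the least of the 30 (-1.9995 ± 0.12, adjusted p = 4.83e-06).

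Tyms, which makes thymidylate for DNA synthesis, fell the most in the replication list, with 4.74, 5.08, 4.44 and 3.89 CPM in differentiating libraries, against 118, 173 and 127 CPM in proliferating ones (-4.94 ± 0.18, adjusted p = 3.87e-07). Lig1, the ligase that joins Okazaki fragments, fell by 3.67 (SE 0.13), the nucleotide reductase subunit Rrm2 by 3.22 (SE 0.13) and Pola1, the catalytic subunit of the primase polymerase, by 2.95 (SE 0.13). The helicase subunits Mcm2 to Mcm7 in the list fell by between 1.53 for Mcm7 and 2.58 for Mcm5. Gins2, a subunit of the replicative helicase, was the 1 that rose (0.98 ± 0.16, adjusted p = 9.00e-04), and Gins4, of the same complex, had 40.3 CPM in differentiating and 43.2 CPM in proliferating cells (-0.10 ± 0.15, adjusted p = 0.577). E2f1, the factor that activates replication genes, was set aside, with 13.2 CPM in differentiating and 1.12 CPM in proliferating CG4 cells, against 15.2 CPM in differentiating and 63.1 CPM in proliferating primary cells.

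The promoters of all counted members of these 2 lists, whether they fell or not, were searched for sequence elements of cell cycle genes. The lists were drawn up as cell cycle genes, so the shares describe the lists and not falling genes in general. The elements searched, on both strands of the 250 bases before and 50 after each start, were CHR (TTTGAA), through which cell cycle genes are repressed in resting cells, the CCAAT box (CCAAT), bound by NF-Y, and an E2F element (TTTNNCGC). RefSeq promoters (GRCr8) were found for 25 of the 30 mitosis genes, 27 of the 34 replication genes and 9282 of 12001 tested genes with a symbol. CHR occurred in 18 of the 25 mitosis promoters (72.0%) and 2 of the 27 replication promoters (7.41%), against 11.3% of tested genes and 18.3% of all 33465 promoters. The CCAAT box occurred in 17 mitosis promoters (68.0%) and 19 replication promoters (70.4%), against 38.0% of tested genes and 37.5% of all promoters. The E2F element occurred in 15 replication promoters (55.6%) and 3 mitosis promoters (12%), against 8.40% of tested genes and 4.92% of all promoters. None of the 11 structural myelin promoters held CHR or the E2F element, against 11.3% and 8.40% of tested genes, and 3 held the CCAAT box (27.3%). So few promoters cannot tell none from these shares. Matches of CHR and the CCAAT box shared bases in 1 mitosis promoter, and those of the E2F element and the CCAAT box in 1 replication promoter. A match is a description of these letters and not a measured binding site.

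The sequences printed here are the promoters of the 3 genes with the smallest adjusted p in each list that had a promoter entry, whether or not it held a match. Matches are in capitals, and each sequence is on the strand of its gene. For the mitosis list these are Ndc80 (chr9:118887480-118887779, minus strand), a kinetochore protein, with a CHR match, Kif11 (chr1:244536617-244536916, plus strand) and Cenpe (chr2:226310807-226311106, plus strand), a kinetochore motor, both with a CCAAT box.
Ndc80: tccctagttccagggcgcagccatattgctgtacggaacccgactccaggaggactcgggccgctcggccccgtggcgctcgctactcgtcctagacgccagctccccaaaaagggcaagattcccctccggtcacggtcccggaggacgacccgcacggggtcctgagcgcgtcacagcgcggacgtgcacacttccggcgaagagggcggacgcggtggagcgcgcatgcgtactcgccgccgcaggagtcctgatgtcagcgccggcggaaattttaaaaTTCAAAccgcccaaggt
Kif11: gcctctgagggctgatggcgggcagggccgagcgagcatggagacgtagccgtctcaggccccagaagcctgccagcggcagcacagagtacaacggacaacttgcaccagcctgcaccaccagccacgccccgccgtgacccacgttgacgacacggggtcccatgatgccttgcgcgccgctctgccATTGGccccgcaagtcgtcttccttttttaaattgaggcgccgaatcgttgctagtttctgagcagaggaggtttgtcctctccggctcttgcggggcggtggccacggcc
Cenpe: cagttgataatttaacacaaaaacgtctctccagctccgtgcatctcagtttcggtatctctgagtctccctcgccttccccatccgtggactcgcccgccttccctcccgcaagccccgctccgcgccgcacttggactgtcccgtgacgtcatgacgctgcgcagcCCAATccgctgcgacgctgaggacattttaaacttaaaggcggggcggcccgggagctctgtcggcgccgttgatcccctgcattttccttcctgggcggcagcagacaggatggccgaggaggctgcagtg
For the replication list these are Lig1 (chr1:83242920-83243219, plus strand) and Tyms (chr9:120776034-120776333, minus strand), each with an E2F element, and Pola1 (chrX:62342306-62342605, minus strand), with an E2F element and a CCAAT box.
Lig1: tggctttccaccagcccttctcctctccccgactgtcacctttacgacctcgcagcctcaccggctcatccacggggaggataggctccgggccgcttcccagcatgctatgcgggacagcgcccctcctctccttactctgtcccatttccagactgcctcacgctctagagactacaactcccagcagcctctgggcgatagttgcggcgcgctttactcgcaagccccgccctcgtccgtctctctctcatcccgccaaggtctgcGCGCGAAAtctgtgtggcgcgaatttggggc
Tyms: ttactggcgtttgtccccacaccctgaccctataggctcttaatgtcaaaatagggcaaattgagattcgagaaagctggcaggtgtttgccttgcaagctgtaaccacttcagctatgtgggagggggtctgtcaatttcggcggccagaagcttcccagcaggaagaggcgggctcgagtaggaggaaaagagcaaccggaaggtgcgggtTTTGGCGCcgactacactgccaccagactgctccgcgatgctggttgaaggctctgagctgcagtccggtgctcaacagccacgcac
Pola1: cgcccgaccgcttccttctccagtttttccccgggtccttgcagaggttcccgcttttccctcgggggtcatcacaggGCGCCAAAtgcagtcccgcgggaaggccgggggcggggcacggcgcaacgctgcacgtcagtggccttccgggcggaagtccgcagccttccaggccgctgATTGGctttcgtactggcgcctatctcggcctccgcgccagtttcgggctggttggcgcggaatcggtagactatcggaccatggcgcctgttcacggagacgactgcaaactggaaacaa
The 6 genes fell by between 2.95 for Pola1 and 4.94 for Tyms on the log2 scale.

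Control genes of G1 phase were lower in 15 of 25 cases and higher in 5 (3 without differentiating replicate 4), with a median of -1.13. Ccnd1, the D-type cyclin that growth factors induce, had 177, 219, 175 and 152 CPM in differentiating libraries, against 627, 1523 and 779 CPM in proliferating ones (-2.43 ± 0.30, adjusted p = 1.86e-04). Its kinase partner Cdk4 fell by 1.13 (SE 0.14), and E2f7, a repressor that is itself made in S phase, by 3.71 (SE 0.17). Cdkn1c, the imprinted inhibitor p57, rose the most of the list, with 3896, 4063, 2118 and 2198 CPM in differentiating libraries, against 25.9, 111 and 103 CPM in proliferating ones (5.26 ± 0.60, adjusted p = 1.28e-04). Cdkn1b, the inhibitor p27, had 131 ± 10.7 CPM in differentiating and 139.7 ± 35.8 CPM in proliferating cells (SD, n = 4 and 3) and did not pass the test (-0.09 ± 0.17, adjusted p = 0.656). Cdkn1a, the inhibitor p21, had 58.6, 63.0, 52.0 and 85.5 CPM in differentiating libraries, against 53.4, 10.8 and 6.36 CPM in proliferating ones, with overlapping groups (1.46 ± 0.66, adjusted p = 0.0810). It passed with DESeq2, with the replicate block, in the fit of 15 libraries and without proliferating replicate 1, where the log2 fold change was 2.92. Cdkn2a, which encodes p16 and ARF, rose by 1.33 ± 0.23, adjusted p = 0.00129. Myc, which promotes growth, was also higher in differentiating cells, with 543, 599, 524 and 656 CPM there, against 412, 151 and 334 CPM in proliferating libraries (0.96 ± 0.30, adjusted p = 0.0230). It did not pass with the replicate block, without differentiating replicate 4 or with the gene span trend removed (adjusted p up to 0.150).

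The growth factors of the proliferation medium, bFGF and PDGF-AA, signal through ERK, and their part in the changes of the ERK list was not tested. In the list of ERK targets and feedback inhibitors 10 of 22 fell and 8 rose, with a median of -0.60 that turned to 0.15 without proliferating replicate 2 and was -0.09 with the replicate block. Spry4, an inhibitor of receptor tyrosine kinase signalling, had 5.20, 6.49, 6.44 and 4.28 CPM in differentiating libraries, against 79.0, 242 and 65.8 CPM in proliferating ones (-4.52 ± 0.47, adjusted p = 7.95e-05). The ETS factors Etv5 and Etv4, which FGF induces, fell by 3.51 (SE 0.22) and 2.95 (SE 0.31). Dusp6, the phosphatase of ERK itself, had 68.4, 51.4, 31.3 and 36.1 CPM in differentiating libraries, against 106, 251 and 61.1 CPM in proliferating ones, with overlapping groups (-1.57 ± 0.46, adjusted p = 0.0164), and it did not pass without proliferating replicate 2 (-0.84, adjusted p = 0.0573). Proliferating replicate 2 had the highest level of the 7 libraries for Spry4, Etv5, Etv4 and Dusp6. Egr1, an immediate early factor, differed most between replicates, with 35.9, 48.4, 13.0 and 17.9 CPM in differentiating libraries, against 5.85, 242 and 2.12 CPM in proliferating ones. It did not pass the test (-1.53 ± 1.302, adjusted p = 0.324), and without proliferating replicate 2 it was higher in differentiating cells (2.85, adjusted p = 0.00686).

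Other members of the ERK list were higher in differentiating cells. Fos, an AP-1 subunit, had 314, 261, 93.2 and 146 CPM there, against 8.24, 26.5 and 5.98 CPM in proliferating libraries (3.91 ± 0.67, adjusted p = 0.00111), and Fosl1, another AP-1 subunit, rose by 6.25 ± 0.53, adjusted p = 2.53e-05. Spry1, a relative of Spry4, rose by 1.37 ± 0.32, adjusted p = 0.00584. Differentiating replicates 1 and 2 lay above replicates 3 and 4 for Fos, Fosl1 and Spry1.

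Of 16 PDGF and FGF genes 9 rose and 3 fell, with a median of 1.72. Among ligands, Pdgfb, which encodes the B chain, had 81.7, 96.2, 62.1 and 126 CPM in differentiating libraries, against 0.311, 0.126 and 0.0482 CPM in proliferating ones (9.09 ± 0.52, adjusted p = 3.12e-06), and its mean in primary cells was 1.68 CPM when differentiating and 2.78 CPM when proliferating. Pdgfa, the chain that forms PDGF-AA, rose by 1.74 ± 0.28, adjusted p = 7.74e-04. Fgf2, the gene of bFGF, had 16.7, 11.2, 2.22 and 3.85 CPM in differentiating libraries, against 0.191, 0.0314 and 0.169 CPM in proliferating ones (5.94 ± 0.95, adjusted p = 7.65e-04). Among receptors, Fgfr3 had 782, 967, 1412 and 1296 CPM in differentiating libraries, against 66.0, 54.9 and 98.2 CPM in proliferating ones (3.93 ± 0.31, adjusted p = 1.74e-05). Fgfr1 rose by 1.69 ± 0.27, adjusted p = 7.60e-04 and Fgfr2 by 3.03 ± 0.57, adjusted p = 0.00185. Fgfr4 rose by 2.62 ± 0.48, adjusted p = 0.00164 and the receptor-like Fgfrl1 by 2.19 ± 0.25, adjusted p = 1.23e-04, while Pdgfra fell.

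**Figure D3:**
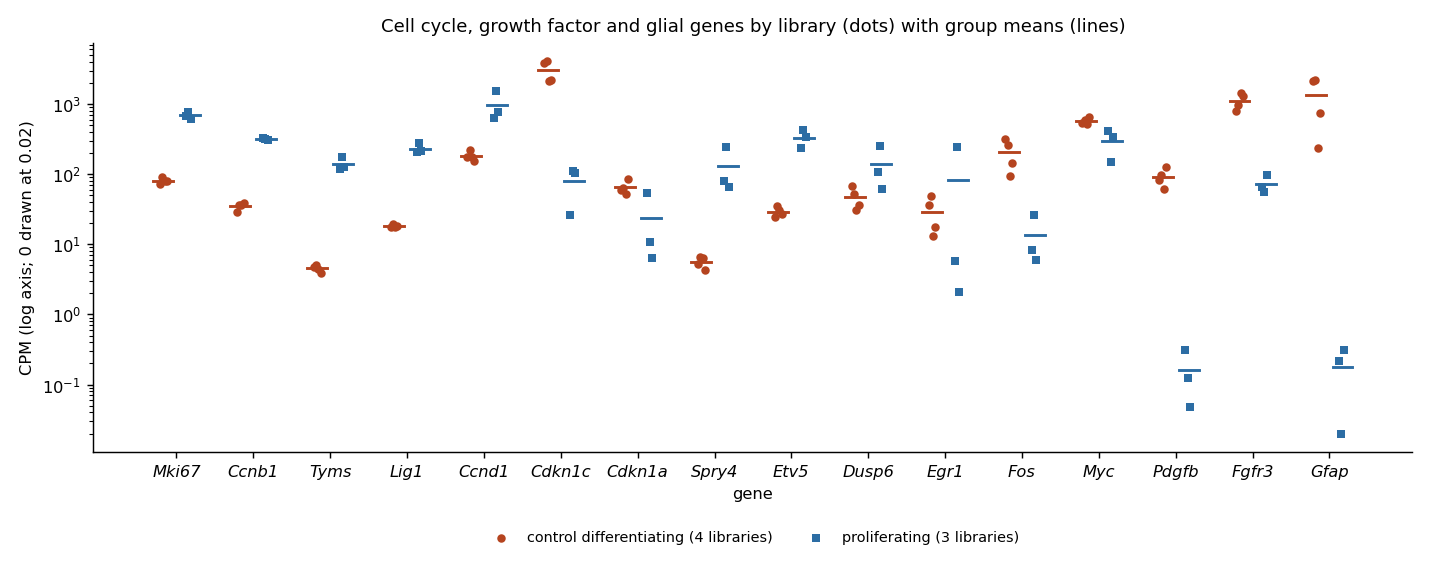
CPM (log axis, 0 drawn at 0.02) of 16 genes of the cell cycle, growth factor signalling and glia in each library, with the 4 control differentiating libraries left (circles) and the 3 proliferating libraries right (squares) and lines at the group means. Mki67, Ccnb1, Tyms and Lig1 form tight, separate groups, while Egr1 and Dusp6 overlap and Gfap spans 238 to 2192 CPM in differentiating libraries, against at most 0.313 CPM in proliferating ones.

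Genes that thyroid hormone acts through or induces were higher in 10 of 16 cases and lower in 3, with a median of 1.28. Klf9, a direct target of the hormone, had 71.0, 77.6, 57.4 and 64.0 CPM in differentiating libraries, against 36.6, 15.1 and 20.01 CPM in proliferating ones (1.496 ± 0.29, adjusted p = 0.00227). Hr, a corepressor that the hormone induces, had 1119, 1227, 1012 and 1215 CPM in differentiating libraries, against 360.4, 305 and 73.7 CPM in proliferating ones (2.22 ± 0.48, adjusted p = 0.00371). Both genes were higher in every differentiating library. The receptor Thrb rose by 2.15 ± 0.39, adjusted p = 0.00163, and Thra, the other receptor, had 288 CPM in differentiating and 224 CPM in proliferating cells (0.36 ± 0.26, adjusted p = 0.239). Dio3, the deiodinase that inactivates the hormone, had 1 count over the proliferating libraries and was 63.9-fold higher in differentiating cells, with a counting interval of 11.2 to 2551. The corepressor Ncor1 fell (-0.90 ± 0.12, adjusted p = 2.81e-04).

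CNTF acts through gp130 and STAT3. Of 20 genes of this pathway 7 rose and 3 fell, with a median of 0.65, or 0.42 without proliferating replicate 1. The receptor subunit Cntfr rose by 1.19 ± 0.26, adjusted p = 0.00430 and the shared subunit Il6st, gp130, fell by 0.81 (SE 0.25), which did not pass without differentiating replicate 4 or proliferating replicate 1 or 3 or with the gene span trend removed (adjusted p up to 0.0573). Stat3 had 445, 403, 234 and 286 CPM in differentiating libraries, against 151, 333 and 195 CPM in proliferating ones, and did not pass the test (0.60 ± 0.32, adjusted p = 0.128) unless proliferating replicate 2 was left out or the gene span trend removed. Bcl3, a cofactor of NF-kappaB that STAT3 induces, had 90.3, 85.6, 36.9 and 61.3 CPM in differentiating libraries, against 1.15, 0.126 and 0.145 CPM in proliferating ones (7.12 ± 0.78, adjusted p = 9.98e-05).

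In the BMP list 10 of 19 genes rose and 3 fell, with a median of 0.89, or 0.58 without differentiating replicate 3. Id1 and Id3, which block bHLH factors and are direct BMP targets, both rose. Id1 had 45.2, 46.8, 41.6 and 54.5 CPM in differentiating libraries, against 5.14, 2.51 and 2.36 CPM in proliferating ones (3.81 ± 0.31, adjusted p = 2.19e-05), and Id3 rose by 2.85 ± 0.33, adjusted p = 1.44e-04. The ligand Bmp4 had 128, 159, 301 and 232 CPM in differentiating libraries, against 24.7, 10.1 and 28.0 CPM in proliferating ones (3.29 ± 0.44, adjusted p = 3.10e-04). Nog, a secreted BMP antagonist, rose with it (4.57 ± 0.64, adjusted p = 3.92e-04), while the ligand Bmp7 fell (-1.72 ± 0.33, adjusted p = 0.00189). Bmp6 had 1 count over the proliferating libraries and was 357-fold higher in differentiating cells, with a counting interval of 63.7 to 14115. In the Notch list 8 of 18 genes rose, or 5 without differentiating replicate 2 or 3, and 3 fell, with a median of 0.70, including the ligand Jag1 (2.17 ± 0.28, adjusted p = 2.24e-04), while the ligand Dll1 fell (-1.99 ± 0.30, adjusted p = 6.08e-04). The target Hes5, a repressor of differentiation, had 1.14, 1.46, 2.70 and 1.09 CPM in differentiating libraries, against 0.979, 0.439 and 8.12 CPM in proliferating ones (-0.998 ± 0.88, adjusted p = 0.340). The test was not passed, and the direction turned without proliferating replicate 3 (1.15, adjusted p = 0.107). Of 25 Wnt genes 8 rose and 7 fell, with a median of 0.44. The number that fell was 4 without proliferating replicate 3, and the median was 0.28 and 0.26 without differentiating replicates 3 and 4 and 0.78 with the gene span trend removed. The ligands Wnt7a and Wnt7b, made by progenitors, fell by 2.26 (SE 0.71) and 1.77 (SE 0.43), and the receptor Fzd7 rose by 4.13 ± 0.48, adjusted p = 1.39e-04. Wnt7a did not pass with the replicate block, without differentiating replicate 1, 2 or 4 or without proliferating replicate 2 or 3 (adjusted p up to 0.0723).

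Astrocyte markers were also higher in differentiating cells, in 9 of 15 counted cases with 1 lower and a median of 1.40. Gfap (ENSRNOG00000002919), the intermediate filament of astrocytes, had 2146, 2192, 238 and 745 CPM in differentiating libraries, against 0.215, 0 and 0.313 CPM in proliferating ones (12.77 ± 1.28, adjusted p = 6.23e-05). Replicates 1 and 2 lay about as high as each other and well above replicates 3 and 4, and all lay far above the proliferating libraries. The summed level of the 15 markers was 3852 to 6290 CPM in differentiating and 1808 to 2811 CPM in proliferating libraries. Sox9, a glial factor, had 10.2, 14.5, 10.6 and 15.9 CPM in differentiating libraries, against 0.526, 4.93 and 4.17 CPM in proliferating ones (2.001 ± 0.63, adjusted p = 0.0224), and did not pass without differentiating replicate 4 or with the gene span trend removed (adjusted p up to 0.0567). Aldh1l1, a folate enzyme that marks astrocytes, had under 1 CPM in each differentiating library and no count in the proliferating ones, so it was at least 16.1-fold higher, taking 3 counts over the group as the floor. Slc1a2, the astrocyte glutamate transporter, had 1.05 CPM in differentiating and 0.727 CPM in proliferating cells. Their part in the other results was not tested.

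Markers of other cells differed in direction by list. Of 14 Schwann cell markers 9 rose and 2 fell (median 1.57; 1 fell without any 1 of differentiating replicates 1, 3 and 4 and proliferating replicates 1 and 2), with a summed level of 2141 to 2949 CPM in differentiating and 845 to 923 CPM in proliferating libraries, most of it from Erbb3 and Sox2, which oligodendroglia also express. Of 17 neuron markers 6 rose and 5 fell (median -0.60, or -0.14 without proliferating replicate 3, where 3 fell, and -1.01 without proliferating replicate 1; 3 also fell without differentiating replicate 4), with sums of 464 to 828 CPM in differentiating and 574 to 751 CPM in proliferating libraries. Of 5 fibroblast and vascular markers 4 rose, or 2 without differentiating replicate 2 or 4 or proliferating replicate 1, and they summed to 27.1 to 37.4 CPM in differentiating and 3.63 to 9.91 CPM in proliferating libraries. The microglia markers summed to 87.0 to 108 CPM in differentiating and 42.1 to 92.8 CPM in proliferating libraries, and 2 of 6 rose, or 5 in the fit of 15 libraries.

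Lipid genes rose in part. Of 25 genes for fatty acids and sphingolipids 15 rose and 3 fell, with a median of 0.93. Scd2, the desaturase of brain lipids, had 9530.0, 10168, 15058 and 11047 CPM in differentiating libraries, against 4420.2, 1668 and 2327 CPM in proliferating ones (2.03 ± 0.36, adjusted p = 0.00130). Ugt8, which makes the myelin galactolipids, rose by 1.55 ± 0.20, adjusted p = 2.19e-04, Fasn, fatty acid synthase, by 0.70 ± 0.13, adjusted p = 0.00176, and Srebf1, which activates fatty acid genes, by 3.47 ± 0.34, adjusted p = 5.92e-05. Acaca, the carboxylase that commits carbon to fatty acids, fell (-0.89 ± 0.10, adjusted p = 1.41e-04). Of 22 cholesterol genes 11 rose and 4 fell, with a median of 0.44. The number that fell was 2 without differentiating replicate 1, 2 or 4 or proliferating replicate 2, with RLE or upper quartile scaling and with the replicate block, and the median was 0.28 with the gene span trend removed. Hmgcs1, an enzyme near the start of the pathway, had 671, 801, 1302 and 732 CPM in differentiating libraries, against 489, 416 and 682 CPM in proliferating ones, with overlapping groups (0.73 ± 0.27, adjusted p = 0.0427), and did not pass without differentiating replicate 2, 3 or 4, without proliferating replicate 1 or 2 or with the gene span trend removed (adjusted p up to 0.117). Acat2, which makes acetoacetyl-CoA, fell (-1.84 ± 0.11, adjusted p = 4.62e-06), and Fdps was set aside.

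Lysosomal genes rose in 20 of 30 cases and none fell, with a median of 1.21. Psap, the precursor of the sphingolipid activator proteins, had 1918, 1800.4, 1817 and 2033 CPM in differentiating libraries, against 678, 643 and 721 CPM in proliferating ones (1.47 ± 0.12, adjusted p = 2.42e-05). The protease Ctsd rose by 1.53 ± 0.19, adjusted p = 2.18e-04, Hexa, which degrades gangliosides, by 1.80 ± 0.15, adjusted p = 2.65e-05, and Tfeb, the factor that controls lysosomal genes, by 1.42 ± 0.28, adjusted p = 0.00242. Interferon and MHC class I genes rose in 13 of 20 cases and none fell, with a median of 1.55. B2m, which pairs with every class I heavy chain, had 233, 212, 177 and 209.5 CPM in differentiating libraries, against 106, 49.9 and 83.9 CPM in proliferating ones (1.38 ± 0.24, adjusted p = 0.00135). Tap1, the peptide transporter, rose by 1.74 ± 0.18, adjusted p = 8.39e-05 and Irf9, a subunit of the interferon-induced complex, by 2.03 ± 0.14, adjusted p = 1.02e-05. Irf7, which drives interferon production, had 1.17, 0.718, 0.749 and 1.04 CPM in differentiating libraries and no count in proliferating ones, so it was at least 35.8-fold higher. RT1-A1 and RT1-A2, the class I heavy chains of the rat, were set aside.

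Among 22 glycolysis genes 10 rose and 2 fell, with a median of 0.64. Without proliferating replicate 1, 17 rose and the median was 1.15, and without proliferating replicate 2 the median was 0.40. Pkm, pyruvate kinase, rose by 1.31 ± 0.25, adjusted p = 0.00214 and Slc2a1, the glucose transporter, by 1.93 ± 0.36, adjusted p = 0.00178, while Pdha1, a subunit of pyruvate dehydrogenase, fell (-0.90 ± 0.21, adjusted p = 0.00607). Ldha, which makes lactate, had 3253, 3472, 3222 and 3097 CPM in differentiating libraries, against 2300.1, 534 and 683 CPM in proliferating ones (1.48 ± 0.48, adjusted p = 0.0241), and did not pass without proliferating replicate 3 or with the gene span trend removed (adjusted p up to 0.0771). Of 28 nuclear genes of the respiratory chain 8 were higher and 8 lower, with a median of -0.07. With upper quartile scaling 11 were higher and 2 lower (median 0.08), and with the gene span trend removed 4 were higher and 13 lower (median -0.31). The number lower was 5 without differentiating replicate 1 or 2 or proliferating replicate 1, and the medians without 1 library ran between -0.11 and 0.00027. Of 28 ribosomal protein genes 10 fell and 3 rose, with a median of -0.24. With upper quartile scaling 6 fell (median -0.09), with the gene span trend removed 17 fell and none rose (median -0.66), and without proliferating replicate 1 the median was -0.055. Rps15, one of the 3, turned to -0.01 without the gene span trend (adjusted p = 0.951). Of 25 stress genes, from the integrated stress response and the unfolded protein response, 7 rose and 5 fell, with a median of -0.13. It was 0.02 with upper quartile scaling, 0.03 with the replicate block, -0.42 with the gene span trend removed, 0.37 without proliferating replicate 1, -0.045 without replicate 2 and -0.20 without replicate 3, where 8 fell. Without differentiating replicate 4, 4 rose. The cystine transporter Slc7a11 had 3.23, 3.32, 4.34 and 3.89 CPM in differentiating libraries, against 172, 7.47 and 11.5 CPM in proliferating ones, where replicate 1 stood apart (-4.10 ± 1.01, adjusted p = 0.00725). It did not pass with the replicate block (adjusted p = 0.0845), and the smallest fall over the alternatives was 1.36.

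Matrix and integrin genes rose in 15 of 33 cases and fell in 5, with 2 to 8 falling over the alternatives and a median of 1.41. Col11a1, a fibrillar collagen, had 6709.8, 7717, 7667 and 6046 CPM in differentiating libraries, against 354, 1070.4 and 334 CPM in proliferating ones (3.58 ± 0.46, adjusted p = 2.41e-04), and averaged 89.9 CPM in differentiating and 56.8 CPM in proliferating primary cells. Itgav, an integrin subunit of progenitors, fell by 2.27 (SE 0.21), and Sparc was set aside. Of 30 cytoskeleton genes 12 rose and 9 fell, with a median of 0.18, or 0.01 without the gene span trend, 0.12 without differentiating replicate 3 and 0.40 without proliferating replicate 3. Tmsb4x, which binds free actin, fell by 2.78 (SE 0.30) and Actb by 1.22 (SE 0.19), while Marcks, which links actin to the membrane, rose by 2.15 ± 0.23, adjusted p = 8.31e-05. Of 23 channels and receptors 10 fell and 6 rose, with a median of -0.60, or -0.37 without proliferating replicate 3 and -0.34 with the gene span trend removed. Grik3, a kainate receptor subunit, had 18.9, 19.4, 13.6 and 4.14 CPM in differentiating libraries, against 165, 426 and 232 CPM in proliferating ones (-4.29 ± 0.55, adjusted p = 2.32e-04). The AMPA receptor subunits Gria3 and Gria4 fell by 1.08 (SE 0.13) and 1.65 (SE 0.18), and P2ry1, a receptor for ADP, rose by 3.34 ± 0.30, adjusted p = 3.74e-05. Of 38 guidance and adhesion genes 12 rose and 9 fell, with a median of 0.30 that was -0.01 without differentiating replicate 3, 0.14 and 0.19 without proliferating replicates 1 and 2 and 0.69 with the gene span trend removed. The netrin receptor Dcc fell by 3.30 (SE 0.43) and the ligand Sema3a by 2.59 (SE 0.17), while Plxnb3, a semaphorin receptor of oligodendroglia, rose by 2.14 ± 0.18, adjusted p = 2.50e-05. Of the 3 counted replication histones with a symbol, Hist3h2ba was higher (0.66 ± 0.19, adjusted p = 0.0159), did not pass with the replicate block or without proliferating replicate 3 (adjusted p up to 0.060), and turned to -0.74 without the gene span trend (adjusted p = 0.0094).

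**Figure D4:**
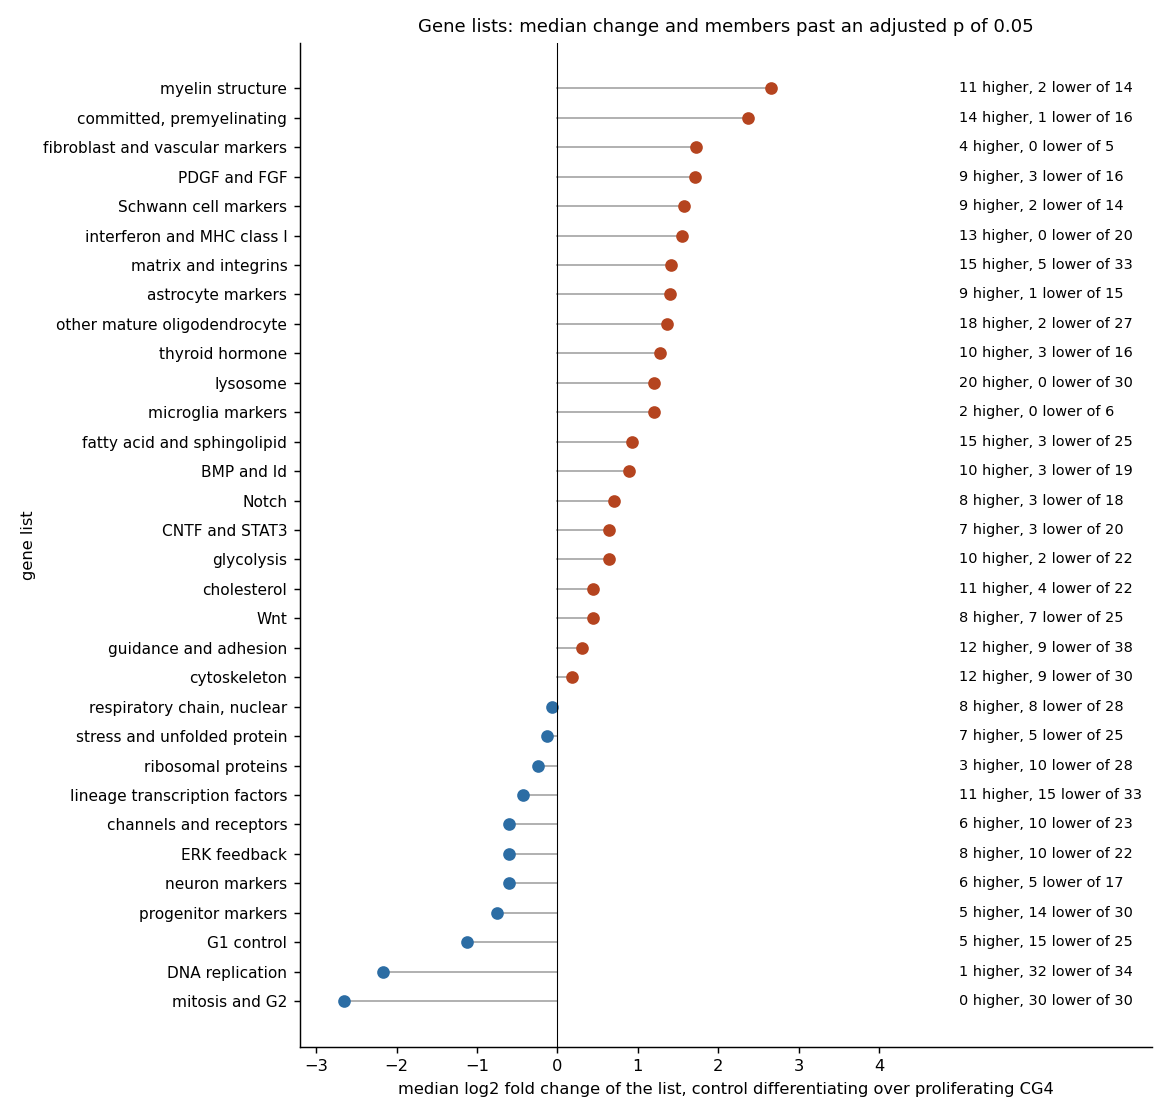
Median log2 fold change (control differentiating over proliferating CG4) of each gene list with at least 5 counted members, with the number of members past an adjusted p of 0.05 in each direction. Structural myelin genes stand highest at 2.65 and the genes of mitosis and G2 lowest at -2.66, with a median of 0.02 over all genes. The top place is not stable. Premyelinating genes lay above structural myelin genes without proliferating replicate 3 (3.025 against 2.68) and with the gene span trend removed (2.80 against 2.62).

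The 12 largest rises among genes not set aside were Hhatl, Myh6, Gfap, Synpo, Setdb2, Cyp2j10, Entpd2, Pdgfb, C2, Rhbdl2, AABR07044375.1 and Bicdl2. Myh6, a cardiac myosin heavy chain, had 171, 152, 140.3 and 151 CPM in differentiating libraries, against 2 counts over the proliferating ones, a ratio of 8864 with a counting interval of 2454 to 73200. Hhatl had 27.5, 52.4, 60.7 and 87.1 CPM in differentiating libraries, Synpo, an actin-associated protein, 20.3, 23.6, 23.3 and 17.4 CPM, and Setdb2, of the SET domain methyltransferases, 10.03, 9.61, 8.84 and 8.56 CPM. These 3 had no count in proliferating libraries and were at least 2194-fold, 806-fold and 355-fold higher. Cyp2j10, a cytochrome P450, was 2460-fold higher (681 to 20319), Rhbdl2, a rhomboid protease, 443-fold (151 to 2148), and Bicdl2 366-fold (125 to 1777). Several of these lay below the primary cells in proliferating CG4, but by less than the limit with means raised to 1 CPM. By that measure Setdb2 lay 6.34-fold below, AABR07044375.1 5.88-fold, Gfap 4.33-fold, Synpo 4.12-fold, Myh6 3.76-fold and Bicdl2 3.32-fold. For Setdb2, Gfap, Synpo, Myh6 and Bicdl2 the proliferating level was under 1 CPM, so the gap without raising was larger than these folds. Entpd2, an ectonucleotidase, rose by 9.37 ± 0.67, adjusted p = 1.11e-05, and C2, a complement component, by 8.71 ± 0.45, adjusted p = 1.97e-06.

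Among the 12 largest falls were Nwd2, Adam12, Cfap52, Dscam, Setbp1, Zfp704, Dgkh, Tyms, Slc9a7, Pstpip2 and Ccdc15. Nwd2 had 0.183, 0.249, 0.325 and 0.113 CPM in differentiating libraries, against 33.1, 129 and 79.8 CPM in proliferating ones (-8.53 ± 0.57, adjusted p = 7.84e-06). Adam12, a membrane metalloprotease, had 3.21, 2.73, 4.39 and 2.31 CPM in differentiating libraries, against 284, 526 and 222 CPM in proliferating ones (-6.76 ± 0.38, adjusted p = 3.07e-06), and the proliferating mean lay 7.002-fold above the other groups. Dscam, an adhesion molecule, had 0.298, 0.193, 0.649 and 0.113 CPM in differentiating libraries, against 2.60, 30.7 and 37.7 CPM in proliferating ones, where replicate 1 stood apart (-6.23 ± 0.95, adjusted p = 6.13e-04).

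CG4 cells were set beside primary oligodendroglia in 1 fit of 15 libraries. Of 14 counted structural myelin genes, 10 had a lower response in CG4 by the interaction test and none a higher one. The 2 responses share no library. Over 12924 genes, the response differed for 8900 (68.9%), with 4368 higher and 4532 (35.1%) lower in CG4, where read length changes with the medium in CG4 only. Mbp rose by 3.93 in CG4 and by 7.75 in primary cells, a difference of -3.82 ± 0.34 (adjusted p = 1.62e-07), and the differentiating level was a mean of 6767 CPM in CG4, against 51740 CPM in primary cells. Myrf (difference -2.20 ± 0.30, adjusted p = 1.25e-05) also rose less in CG4, as did Hmgcs1 (-2.21 ± 0.29, adjusted p = 7.66e-06). For Mag the difference was -1.17 ± 0.65 (adjusted p = 0.123), for Opalin -1.13 ± 0.65 (adjusted p = 0.138) and for Klf9 -0.61 ± 0.28 (adjusted p = 0.0691), none of which passed the test. All 14 counted structural myelin genes rose in primary cells, with a median of 4.98. Mog, which was set aside, went the other way (difference 1.61, adjusted p = 0.00187).

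Cell cycle genes fell in both models. In primary cells 71.7% of the 12924 genes passed the test. The response differed between CG4 and primary cells for 68.9% of them, higher in CG4 for 33.8% and lower for 35.1%. Mki67 fell by 3.09 in CG4 and by 2.00 in primary cells (difference -1.09 ± 0.12, adjusted p = 1.87e-06). All 30 mitosis genes fell in primary cells too, with a median of -1.92, as did 33 of 34 replication genes, with a median of -1.91. The responses differed for 23 of the mitosis and 22 of the replication genes, near the 68.9% over all genes. Pdgfra fell by 1.98 in CG4 and by 0.62 in primary cells (difference -1.36 ± 0.25, adjusted p = 2.17e-04), and Cspg4 differed by -0.82 ± 0.18 (adjusted p = 7.52e-04). Gfap rose by 12.75 in CG4 and by 7.93 in primary cells (difference 4.82 ± 1.11, adjusted p = 0.00138). Proliferating CG4 libraries held almost no Gfap counts, so the size of this difference depends on levels near the floor. It does not compare the levels reached in differentiating cells. The astrocyte list as a whole did not follow Gfap. Of its 15 markers 12 rose and 2 fell in primary cells, with a median of 2.78. Their response was lower in CG4 for 8 and higher for 4, with a median difference of -1.36. Among the signalling lists, interferon and MHC class I genes were lower in 12 of 20 cases and higher in 3 in primary cells, with a median of -1.59, against 13 higher and none lower in CG4, and the responses differed for 17 of the 20. In the ERK list 19 of 22 genes fell and 2 rose in primary cells, with a median of -2.15, against -0.60 in CG4. The ERK response was higher in CG4 for 15 genes and lower for 4. All 22 counted cholesterol genes rose in primary cells, with a median of 1.67, against 11 in CG4, and the responses differed for 20.

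**Figure D5:**
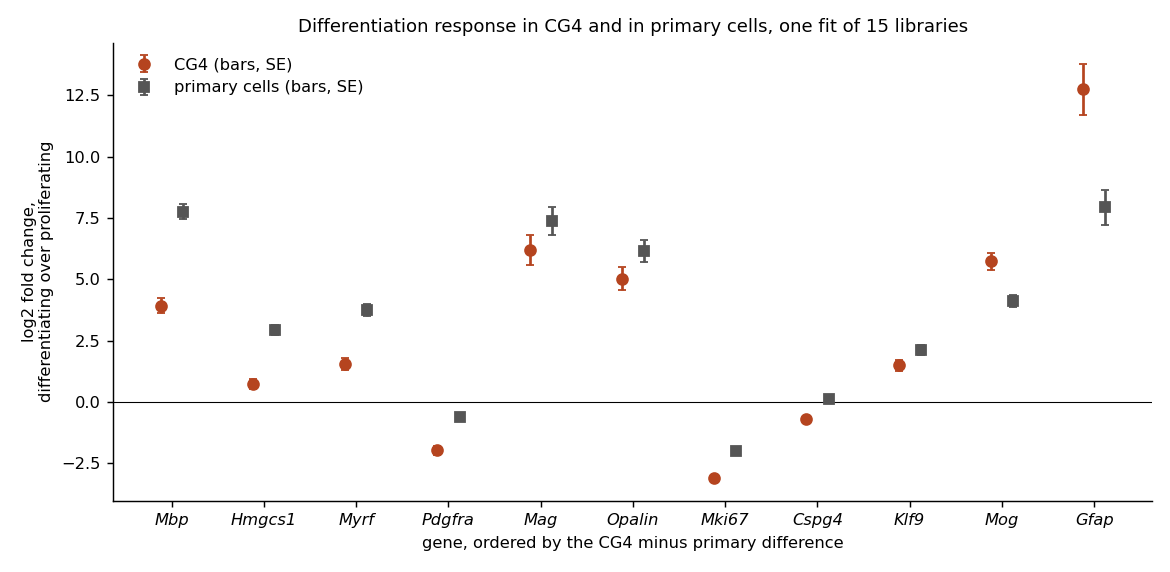
Log2 fold change (differentiating over proliferating, bars SE) of 11 genes in CG4 (circles, left) and primary oligodendroglia (squares, right), from 1 fit of 15 libraries and ordered by the difference. Mbp lies at 3.93 in CG4 and 7.75 in primary cells, and Gfap at 12.75 in CG4 and 7.93 in primary cells.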

How the data were processed

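The starting point was the raw counts per gene that the authors deposited, 1 file per library. For their making, the submitters' processing notes list rn6, STAR 2.5.2b after Trimmomatic 0.36, featureCounts in Subread 1.5.2, and both DESeq2 and edgeR. Which annotation release was used, whether counting used strand and how multiply matching reads were counted is not given here, so overlapping and near-identical genes are uncertain. Symbols were read from the authors' 2 tables of comparisons, which give a usable one for 12412 of 15219 shared genes, and 16 columns of per-sample values in them were not used. Of the set-aside genes, 85 of the 184 above the range and 1 of the 99 below it had no symbol and could enter no list.

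The test was edgeR's quasi-likelihood test (version 4.0.16, R 4.3.3, TMM, filterByExpr, two-sided) on 4 against 3 libraries without covariates, and the difference from primary cells was an interaction in 1 fit of 15 libraries. The labels call the replicates biological, and p-values measure the spread between these libraries, whose pairs within a group differed beyond sampling noise (chi-square over degrees of freedom 22.8 to 265). Named genes are a fixed panel, the 12 largest rises and falls with a mean of at least 5 CPM, a symbol and groups that do not overlap, the 4 members of each list lowest in adjusted p, the 6 farthest set-aside genes per side, and further list members chosen after their values were seen; some genes and 1 list that the rule names are not reported here. The comparison and the lists were chosen with earlier results of these data known. Gene spans and promoters came from RefSeq (GRCr8) by symbol, and no position was matched to rn6. Alternatives were other scalings, no filter on low counts, DESeq2 1.42.0, thinning, the replicate block, other set-aside limits, the fit of 15 libraries, leaving out each library and, chosen after the data were seen, removal of the gene span trend. The procedure was tested on simulated counts in which few genes changed, evenly in direction and without a gene span trend. That setting differs from these data, where 65.0% of the counted genes changed.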

Additional observations from a re-analysis of the deposited data

Results flagged for a closer look

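Responses of 8 named genes differed between CG4 and primary cells by the interaction test, while those of Mag, Opalin and Klf9 did not. Over all 12924 genes 8900 differed (68.9%), so such differences are common here. The log2 difference, CG4 minus primary, was -3.82 for Mbp, -2.20 for Myrf, -2.21 for Hmgcs1, -1.36 for Pdgfra, -1.09 for Mki67, -0.82 for Cspg4, 1.61 for Mog and 4.82 for Gfap. Mog is among the genes set aside for its level in proliferating CG4 cells.

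In 6 of 170 named genes 1 of the 4 control differentiating libraries lay apart from the other 3, by the gap to its neighbour over the whole range (Dixon's 95% limit). Cdkn2a had differentiating replicate 4 apart (0.895), Hexa had differentiating replicate 4 apart (0.888), Itpr2 had differentiating replicate 4 apart (0.854), Nfasc had differentiating replicate 3 apart (0.858), Nuf2 had differentiating replicate 1 apart (0.837) and Slc1a2 had differentiating replicate 2 apart (0.842). Chance flags about 1 in 20 groups.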

How the results depend on the processing

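The counts of changed genes over all genes stayed within 1.5 times their values under the alternatives run, but in 18 of 33 gene lists a count of members called moved by more, and in 4 the median changed sign. The 7930 calls ranged from 6275 to 9533, the 4944 calls of at least 2-fold from 4374 to 5389, and the 8900 genes whose response differed from primary cells from 8649 to 9298. The lowest count came from the replicate block (6275 calls: 3132 higher, 3143 lower), which leaves out differentiating replicate 4. Deviations of same-numbered libraries correlated at -0.065, -0.030 and 0.051, which shows no sign that the numbers pair the libraries. So few libraries cannot exclude such a pairing. Removing the gene span trend, an alternative chosen after the data were seen, gave 7305 calls, 3728 higher and 3577 lower. Among the reported genes of the naming rule or the text, 7 changed direction in 10 cases. Egr1 ranged from -2.11 to 2.85 when 1 library was left out, the highest without proliferating replicate 2, and was 1.22 with the replicate block. Hes5 ranged from -1.51 to 1.15, the highest without proliferating replicate 3, and was 0.060 with the block. Cdkn1b ranged from -0.24 to 0.13, the highest without proliferating replicate 1, was 0.056 with upper quartile scaling and passed as lower with the trend removed. Gins4 was 0.046 with upper quartile scaling. With the trend removed Id2 was -0.19, Hist3h2ba -0.74 and Rps15 -0.013.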
